A study of Mus musculus with 12 samples.

Results

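Expression was compared between wild-type (WT) mouse neurons given the ROCK inhibitor Y-27632 and WT neurons given vehicle, over 6 of the 12 RNA libraries of the series. The members are the 3 libraries labelled WT_ROCKi and the 3 labelled WT_Veh. Neurons were differentiated in culture from mouse embryonic stem cells, reached day 21 in vitro (DIV21), and were exposed for 2 h to water or to Y-27632 at 10 µM. Poly(A) RNA was sequenced as stranded libraries. The WT lines carry the cell line label Daam1-MIC_WT, the unedited counterpart of the Daam1-MIC_KO lines, in which a microexon of Daam1 is deleted. Daam1 is a formin, a protein that nucleates and elongates actin filaments. Labels number the WT cell lines 1 to 3, and each line gave 1 vehicle and 1 inhibitor library, so libraries can be paired by line. The main fit compared the groups without a term for line, and a block by line was an alternative. No label says whether the 3 lines are separate clones or differentiations, so the spread between libraries may be technical in part. The series text speaks of hippocampus of adult mice while every sample label describes cultured neurons, and the sample labels were followed.

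ROCK1 and ROCK2 are kinases that the GTP-bound form of RhoA switches on. They phosphorylate LIM kinases, which in turn inactivate the actin-severing cofilins, and they phosphorylate the targeting subunit of myosin phosphatase and the myosin light chains, so that filaments are stabilised and myosin pulls on them. Y-27632 occupies the ATP pocket of both kinases. In neurons ROCK restrains neurite growth and mediates growth cone collapse. Its link to transcription runs through actin: monomeric actin holds back the MRTF coactivators of serum response factor (SRF), and actomyosin tension favours nuclear YAP, the partner of TEAD factors. The comparison asks which transcripts differed after brief inhibition of the kinases in neurons with intact Daam1.

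The 6 libraries held 26487028 to 30479869 counts each, and mitochondrially encoded genes took 15.0% to 17.4% of them. The glutamatergic label was checked on marker genes in cRPKM, the deposited length-corrected unit. The vesicular glutamate transporter Slc17a6 lay between 58.8 and 93.6 cRPKM in the 6 libraries, whereas Slc17a7, the transporter of cortical and hippocampal excitatory neurons, lay between 0.21 and 0.37, and the cortical regulators Tbr1, Neurod2 and Emx1 stayed under 1. GABAergic genes were abundant on the same scale, with Gad1 at 46.7 to 61.2 and Slc32a1 at 45.3 to 58.5 cRPKM. The cultures therefore held transcripts of both neuron classes. The pluripotency markers Pou5f1 (at most 0.26 cRPKM) and Nanog (at most 0.11 cRPKM) were near 0, and microglial P2ry12 and C1qa were listed at 0 in all 6.

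A pair of libraries stood apart from the rest. On the first principal component of log2 CPM (counts relative to library size, scaled with TMM factors), which held 76.8% of the variance, the vehicle library of line 2 lay at 65.5 and the inhibitor library of line 3 at 48.7, while the other 4 lay between -61.5 and -10.9. The same pair was highest in the summed level of 12 mesenchymal markers, all of them detected. That level was 492, 1474 and 168 CPM in vehicle lines 1 to 3 and 420, 372 and 967 CPM in inhibitor lines 1 to 3. Neural progenitor markers were also highest in this pair, at 57.0, 245 and 23.8 CPM against 69.9, 62.1 and 162 CPM. So were the whole pluripotency list, at 25.1, 63.6 and 22.4 CPM against 27.9, 31.3 and 63.6 CPM, and the microglial list. The latter was at 2.05, 10.0 and 0.728 CPM against 3.14, 3.22 and 6.58 CPM. Summed glutamatergic markers ran from 746 to 905 CPM and GABAergic ones from 593 to 758 CPM, with overlapping treatments. In bulk RNA, fewer cells of a type and less RNA per cell cannot be told apart. Since 1 library of each treatment stood apart, in different lines, the difference within a line had opposite signs in lines 2 and 3 for these markers.

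**Figure D1:**
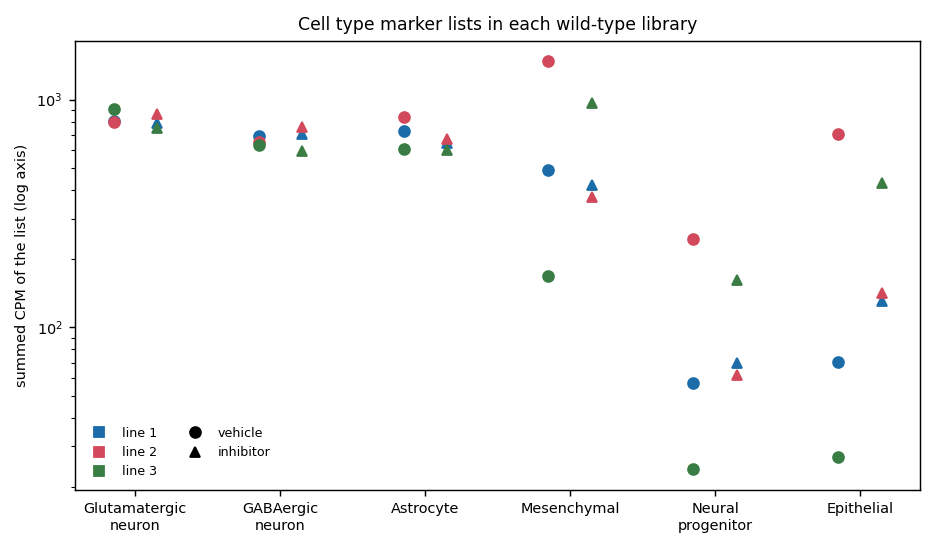
Summed CPM (log axis) of 6 marker lists in each WT library, circles for vehicle, triangles for inhibitor, colours for cell lines. Mesenchymal, progenitor and epithelial markers are highest in the vehicle library of line 2 (1474 CPM for mesenchymal) and the inhibitor library of line 3 (967 CPM), and the neuronal lists stay within narrow ranges.

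No gene was called in WT neurons after 2 h of inhibitor. Of 15013 genes tested with edgeR's quasi-likelihood test, 0 (0%) reached an adjusted p below 0.05, and 15011 genes had the same lowest adjusted p of 1.00. An unadjusted p below 0.05 was found in 167 genes (1.11%), of which 120 (0.799%) were lower and 47 (0.313%) higher with inhibitor. Evenly spread p-values, as without any difference, would place about 751 genes below 0.05, so 167 is fewer than that. DESeq2 and limma also called 0, with 137 and 159 genes at an unadjusted p below 0.05. With the cell line as a block the number was 45, again with 0 called. The median over all genes was -0.01 on the log2 scale.

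The precision of this comparison limits what it can show. The median standard error of a log2 fold change was 0.17. The 95% interval lay within ±1 on the log2 scale for 11414 genes (76.0%) and within ±0.5 for 7301 genes (48.6%). For most genes a doubling or halving of the mean thus lies outside the interval. A difference of 0.5 in either direction lies outside it for 48.6% of genes, and for the rest the interval reaches 0.5 or more in at least 1 direction. Inhibitor and vehicle libraries did not overlap in 914 genes (6.09%), 581 lower (3.87%) and 333 higher (2.22%). All 3 within-line differences were below 0 in 1296 genes (8.63%) and above 0 in 874 (5.82%). The lines differed in how far inhibitor and vehicle lay apart: 328 genes exceeded 1 in absolute log2 difference in line 1, 2033 in line 2 and 2125 in line 3, and 1 gene exceeded it with the same sign in all 3.

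**Figure D2:**
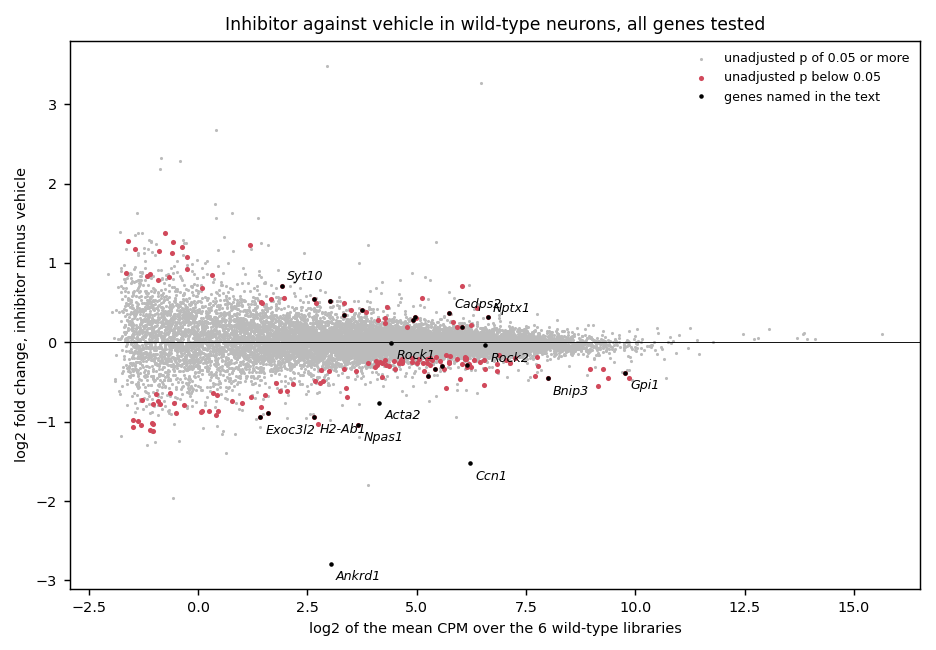
Log2 fold change (inhibitor minus vehicle, edgeR) against log2 of the mean CPM for 15013 genes, with the 167 genes at an unadjusted p below 0.05 in red and genes named in the text in black. Most red points lie below 0 and between -1 and 0, and the genes farthest from 0, such as Ankrd1 at -2.79, are grey or black because their libraries spread widely.

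By unadjusted p, the genes that led on the lower side encode an MHC chain, a mitophagy protein, a transcription factor and an enzyme of glycolysis. They were selected for lying lower without overlap, so their values are a description, and each had an edgeR adjusted p of 1.00. H2-Ab1, the beta chain of an MHC class II molecule, was at 7.85, 9.50 and 7.48 CPM in vehicle lines 1 to 3 and at 4.29, 4.53 and 4.14 CPM with inhibitor. The 3 treated values were nearly equal and lay 47.8% below vehicle on average (log2 fold change -0.94 ± 0.17 SE). H2-Ab1 (ENSMUSG00000073421) lies on chromosome 17 from 34257689 to 34269419, plus strand (GRCm38). Its libraries held 121 to 245 reads, a low number.

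Bnip3, a mitochondrial outer membrane protein that recruits the autophagy machinery, was at 274, 301 and 310 CPM in vehicle and at 200, 223 and 223 CPM with inhibitor. The within-line log2 differences were -0.45, -0.43 and -0.48, so that the 3 lines showed nearly the same difference, and the mean went from 295 ± 18.5 to 215 ± 13.0 CPM (SD, n = 3 each). The fitted log2 fold change was -0.45 with a 95% interval from -0.66 to -0.25. Bnip3 (ENSMUSG00000078566) spans 138890836 to 138909519 on the minus strand of chromosome 7. Npas1, a bHLH-PAS transcription factor of inhibitory neurons, was at 14.3, 15.6 and 20.8 CPM in vehicle and at 8.37, 9.46 and 6.84 CPM with inhibitor (log2 fold change -1.04 ± 0.20). Line 3 showed the widest gap, with a within-line difference of -1.59 against -0.77 and -0.72. Npas1 (ENSMUSG00000001988) is annotated on chromosome 7 from 16455721 to 16477728, minus strand. DESeq2 gave these 3 genes an adjusted p of 0.0712 each, above the threshold of 0.05.

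Gpi1, glucose-6-phosphate isomerase of glycolysis, was at 923, 1008 and 1018 CPM in vehicle and at 733, 817 and 707 CPM with inhibitor, a log2 fold change of -0.39 ± 0.09. Gpi1 (ENSMUSG00000036427) lies on chromosome 7 from 34201330 to 34230336, minus strand. All treated libraries lay below all vehicle libraries, with 21693 reads or more behind each value. Bnip3, Npas1 and Gpi1 each overlap a gene annotated on the opposite strand, and the use of strand in counting is not given in the sources used here.

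Bnip3 is a known target of hypoxia-inducible factors (HIF), which bind the core ACGTG, and Gpi1 belongs to the glycolytic pathway these factors control, so the promoters of this pair are shown. The sequences are those of RefSeq (GRCm38.p6), the 250 bases before the annotated start, 5′ to 3′ on the gene's strand, with matches to ACGTG on either strand in capitals (CACGTG is a match on each strand). The Bnip3 window is chr7:138909507-138909756 and the Gpi1 window is chr7:34230337-34230586, both minus strand.
Bnip3: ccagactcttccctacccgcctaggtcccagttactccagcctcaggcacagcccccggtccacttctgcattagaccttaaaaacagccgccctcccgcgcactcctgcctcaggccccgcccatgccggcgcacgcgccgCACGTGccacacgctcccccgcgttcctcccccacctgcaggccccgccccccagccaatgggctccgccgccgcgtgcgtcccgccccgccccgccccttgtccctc
Gpi1: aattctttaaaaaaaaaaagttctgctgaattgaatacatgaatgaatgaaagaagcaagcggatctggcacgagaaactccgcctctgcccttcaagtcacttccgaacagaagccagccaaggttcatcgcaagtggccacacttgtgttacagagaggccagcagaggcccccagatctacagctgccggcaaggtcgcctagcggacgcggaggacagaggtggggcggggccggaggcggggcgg
The Bnip3 window held a CACGTG whose matches begin 108 and 107 bases before the start, and the Gpi1 window held no match. Among the 10 leading lower genes, 8 had a promoter entry and 4 of these held the core. Among the 10 leading higher genes, 7 had an entry and 2 held it, and of all 32817 listed promoters 16.6% did. Each leading gene entered with the promoter nearest its start, while the 16.6% counts every listed promoter, so these shares are not like for like. A match is a description of letters, not of binding.

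The other leading lower genes included ion channels and regulators. Cacna1i and Cacna1h, pore subunits of low-voltage-activated (T-type) calcium channels, had log2 fold changes of -0.34 ± 0.09 and -0.29 ± 0.08. Cacna1i was at 46.8, 47.9 and 49.4 CPM in vehicle and at 39.8, 40.1 and 34.1 CPM with inhibitor. Cacna1h was at 83.6, 71.1 and 78.2 CPM and at 63.3, 63.6 and 63.7 CPM, with treated values that barely differed from each other. Rora, an orphan nuclear receptor of the circadian clock, was at 37.4, 47.4 and 47.3 CPM in vehicle and at 31.1, 32.4 and 34.4 CPM with inhibitor. Epm2a, the glycogen phosphatase laforin, differed by -0.30 ± 0.08 and Exoc3l2, a relative of exocyst subunits, by -0.95 ± 0.25 at 1.40 to 3.91 CPM. H2-Q7, a class I MHC gene, differed by -0.89 ± 0.24 at 1.82 to 4.54 CPM. It is uncertain, since reads of closely related H2-Q genes may be shared, and the handling of shared reads is not given in the sources used here.

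Genes higher with inhibitor showed smaller differences. The leading one by unadjusted p was Nptx1, a secreted pentraxin that clusters AMPA receptors at synapses, at 90.9, 89.6 and 83.4 CPM in vehicle and at 99.7, 111 and 117 CPM with inhibitor. Its mean lay 24.3% above vehicle (log2 fold change 0.31 ± 0.09, edgeR adjusted p of 1.00), and its within-line differences were 0.13, 0.31 and 0.49. Nptx1 (ENSMUSG00000025582) is on chromosome 11 from 119538719 to 119547753, minus strand. Several others act at the neuronal membrane or in secretion. Cadps2, which primes dense-core vesicles, was at 53.2, 44.6 and 41.6 CPM and at 60.4, 62.8 and 56.6 CPM (0.37 ± 0.11). Htr1a, a serotonin receptor, was at 30.5, 26.0 and 26.3 CPM and at 32.9, 35.2 and 35.1 CPM (0.32 ± 0.10).

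Syt10, a synaptotagmin of secretory vesicles, had the largest log2 fold change of the 10 leading higher genes, 0.71 ± 0.22, at 3.20, 3.06 and 2.28 CPM in vehicle and 4.25, 4.53 and 5.25 CPM with inhibitor. Syt10 rests on 69 to 161 reads per library, a low number. Scn4b, an auxiliary subunit of voltage-gated sodium channels, was at 12.02, 11.3 and 11.5 CPM and at 14.3, 14.1 and 18.0 CPM (0.41 ± 0.13). Calb1, the calcium buffer calbindin, was at 7.09, 7.10 and 5.79 CPM and at 8.28, 9.02 and 11.4 CPM (0.52 ± 0.18). The remaining 4 were Nom1, a nucleolar protein (0.28), Clba1, a clathrin-binding protein (0.34), Trmt9b, related to tRNA methyltransferases (0.54), and Psma5, a proteasome subunit (0.19). Over 18 alternative fits none of the 20 leading genes took the opposite sign, which their choice without overlap largely fixes.

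**Figure D3:**
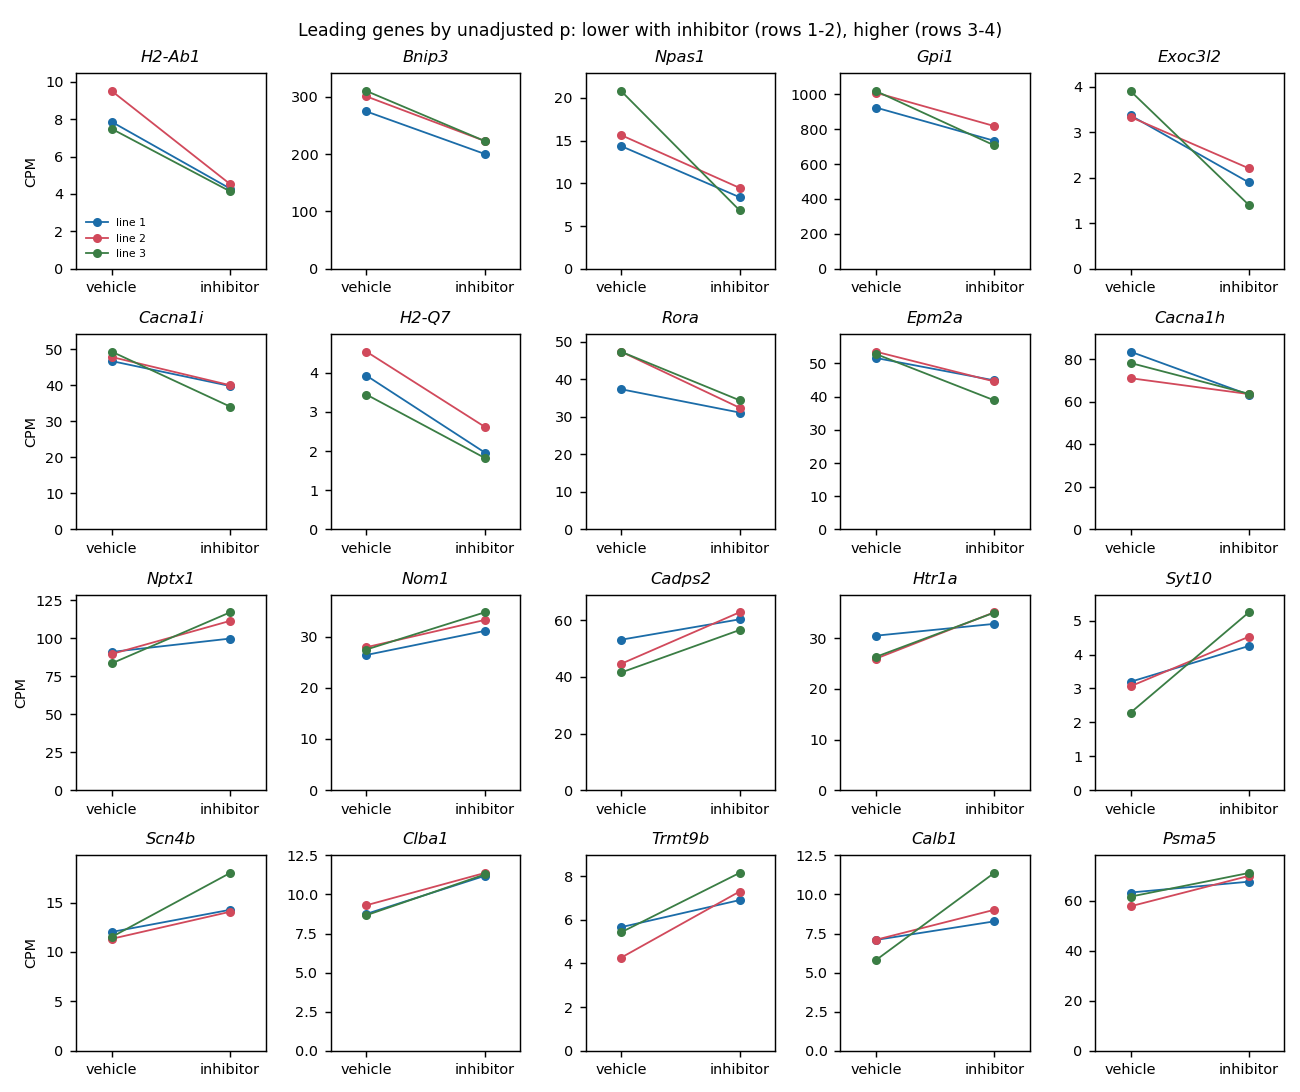
CPM of the 10 leading lower genes (upper panels) and the 10 leading higher genes (lower panels), each line joining the vehicle and inhibitor library of 1 WT cell line, with axes from 0. In each panel the 3 lines run the same way, which the choice of genes without overlap fixes, and Bnip3 shows 3 nearly parallel lines.

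Genes of the RhoA-ROCK pathway itself differed little. Of 35 tested, 13 had positive and 22 negative log2 fold changes, with a median of -0.03 beside -0.01 over all genes. Without the vehicle library of line 1 the median was -0.09, with 24 of 35 lower. None was called and none had an unadjusted p below 0.05. Rock2 was at 90.0, 100 and 98.8 CPM in vehicle and at 93.8, 86.5 and 101 CPM with inhibitor, a log2 fold change of -0.04 with a 95% interval from -0.25 to 0.18. Rock1 was at 18.0, 27.8 and 18.5 CPM and at 19.7, 17.1 and 27.4 CPM (-0.00 ± 0.25), highest in the pair of libraries that stood apart. Ssh1, a slingshot phosphatase that reactivates cofilin, was at 33.7, 39.1 and 35.1 CPM in vehicle and at 32.1, 29.7 and 31.2 CPM with inhibitor (-0.21 ± 0.09). It was 1 of 2 pathway genes lower without overlap (2 of 35, beside 3.87% of all genes). The other was Arhgef11, an exchange factor that activates RhoA, at 109, 108 and 121 CPM in vehicle and at 101, 104 and 88.4 CPM with inhibitor.

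Targets of SRF and its MRTF coactivators did not move one way. Of 32 tested, 24 were lower and 8 higher with inhibitor, with a median of -0.15, but the median within-line difference was 0.08 in line 1, -1.58 in line 2 and 1.77 in line 3. With the cell line as a block the median was 0.03, and with 1 library left out it ran from -0.58 (without the inhibitor library of line 3) to 0.68 (without the vehicle library of line 2). Without both of these libraries, 25 of 31 tested were higher (median 0.22). Acta2, smooth muscle actin, was at 9.03, 55.7 and 1.59 CPM in vehicle and at 10.1, 7.82 and 21.1 CPM with inhibitor. Myl9, a myosin light chain, was at 3.40, 17.8 and 0.728 CPM and at 3.63, 2.69 and 5.02 CPM. Both were highest in the libraries with the most mesenchymal RNA, and the part of those cells in the result was not tested. In line 1, where mesenchymal markers were at 492 and 420 CPM, Acta2 differed by 0.16 and Myl9 by 0.09. Line 1 was not alike in every marker list. Its summed epithelial markers, a list added after values were seen, were at 70.4 CPM in vehicle and 131 CPM with inhibitor. Actb, cytoplasmic beta actin, was at 527, 755 and 528 CPM in vehicle and at 531, 550 and 538 CPM with inhibitor, so that 5 of the 6 libraries were nearly equal. Srf was at 27.4, 41.7 and 24.2 CPM and at 23.5, 24.5 and 27.5 CPM (-0.31 ± 0.21). Cnn1, a calponin of smooth muscle, was the 1 target of 32 lower without overlap, a share below the 3.87% of all genes, at 1.63, 1.78 and 1.69 CPM and at 1.47, 1.23 and 1.14 CPM.

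Targets of YAP and TEAD showed the same arrangement by line. Of 26 tested, 18 were lower and 8 higher, with a median of -0.08 and within-line medians of 0.14, -1.43 and 1.31. With 1 library left out the median ran from -0.39 (without the inhibitor library of line 3) to 0.62 (without the vehicle library of line 2). Without both of these libraries, 20 of 26 were higher (median 0.27). Ccn1, a secreted matrix protein, was at 26.4, 295 and 11.98 CPM in vehicle and at 26.0, 21.1 and 68.6 CPM with inhibitor (log2 fold change -1.52 ± 1.23). In line 1 the vehicle and inhibitor libraries were nearly equal. Ccn2 was at 63.6, 563 and 37.4 CPM and at 81.1, 88.0 and 320 CPM. Ankrd1, a cardiac and mesenchymal ankyrin repeat protein, was at 2.19, 40.1 and 0.563 CPM and at 0.720, 1.08 and 4.37 CPM, with a log2 fold change of -2.79 and a 95% interval from -6.76 to 1.18. Nuak2, a kinase of the AMPK family, was the 1 target of 26 lower without overlap, a share close to that of all genes (3.87%), at 4.52, 4.89 and 5.46 CPM and at 3.89, 4.04 and 2.93 CPM.

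Activity-regulated genes, which calcium entry induces in neurons, were not called. Of 28 immediate early genes, 10 were higher and 18 lower, with a median of -0.12 and within-line medians of -0.08, -0.69 and 0.69. The median was 0.26 without the vehicle library of line 2 and -0.37 without the inhibitor library of line 3. Without both of these libraries, 20 of 28 were higher (median 0.12). Fos, a subunit of the AP-1 factor, was at 19.7, 32.0 and 21.4 CPM in vehicle and at 22.7, 24.5 and 26.9 CPM with inhibitor (0.02 ± 0.20). Arc, which drives AMPA receptor endocytosis, was at 14.7, 17.3 and 10.4 CPM and at 9.88, 11.8 and 14.5 CPM (-0.23 ± 0.23). Npas4, a factor that depends on calcium signals and is largely neuronal, was at 5.49, 3.76 and 5.96 CPM and at 4.19, 5.05 and 4.27 CPM (-0.17 ± 0.23). The zinc finger factor Egr1 differed by -0.38 ± 0.37. Treated and untreated libraries overlapped for all 4. Dusp1, a phosphatase of MAP kinases, was the 1 gene of 28 lower without overlap, a share below the 3.87% of all genes, at 11.8, 18.6 and 11.29 CPM in vehicle and at 10.5, 11.26 and 10.2 CPM with inhibitor, so that the nearest libraries of the groups were almost equal. Among 19 late activity genes, 10 were higher and 9 lower (median 0.02). Bdnf, a neurotrophin, was at 15.0, 15.7 and 17.7 CPM and at 16.7, 19.9 and 16.8 CPM (0.14 ± 0.12), and the neuropeptide precursor Tac1 differed by -0.41 ± 0.29.

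Neuronal lists lay near 0. Of 38 synaptic genes, 17 were higher and 21 lower, with a median of -0.02 and within-line medians of 0.00, 0.24 and -0.35. Without the vehicle library of line 2, 3 of 38 were higher, and without the inhibitor library of line 3, 27 of 38. The range was from -0.16 for Grin2b, an NMDA receptor subunit, to 0.30 for Camk2a, a calmodulin-dependent kinase subunit. Gria1, an AMPA receptor subunit, was at 181, 160 and 179 CPM in vehicle and at 194, 203 and 176 CPM with inhibitor (0.14 ± 0.09), and the vesicle protein Vamp2 differed by -0.15 ± 0.11. Of 32 neurite and cytoskeleton genes, 12 were higher and 20 lower (median -0.05), and 21 were higher without the inhibitor library of line 3 (median 0.05). Nefh, the heavy neurofilament subunit, differed by 0.21 ± 0.10, Kif5a, a kinesin of axonal transport, by 0.18 ± 0.13 and Map1b, a microtubule-associated protein, by -0.21 ± 0.16. The line 3 medians of both lists were negative, in the line whose inhibitor library had the higher mesenchymal level, and the part of that in the result was not tested.

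Formins and actin nucleators were balanced, with 14 of 26 higher (median 0.02). Daam1 was at 167, 153 and 185 CPM in vehicle and at 168, 169 and 131 CPM with inhibitor (-0.11 ± 0.13), and Spire1, a nucleator of unbranched filaments, differed by -0.17 ± 0.11.

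Heat shock and stress genes were split, 13 of 27 higher (median -0.00), with within-line medians of 0.03, -0.53 and 0.30. Without the inhibitor library of line 3, 5 of 27 were higher (median -0.12), and without the vehicle library of line 2, 19 of 27 (median 0.12). Hspa1a, an inducible chaperone, was at 5.42, 8.38 and 4.44 CPM in vehicle and at 3.99, 4.68 and 4.04 CPM with inhibitor (-0.52 ± 0.27). Messenger RNAs encoded in mitochondria leaned higher, 12 of 13, with a median of 0.10, and 6 of 13 did not overlap between treatments (beside 2.22% of all genes). mt-Nd6, a complex I subunit, was at 120, 66.9 and 102 CPM in vehicle and at 132, 121 and 141 CPM with inhibitor (0.45 ± 0.21). It lies opposite mt-Nd5 and is uncertain for that reason. mt-Nd4l differed by 0.18 ± 0.09. These genes come from shared transcripts of 1 small genome and are not independent of each other. Without both libraries of line 3 the median was 0.03, with 10 of 13 higher.

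**Figure D4:**
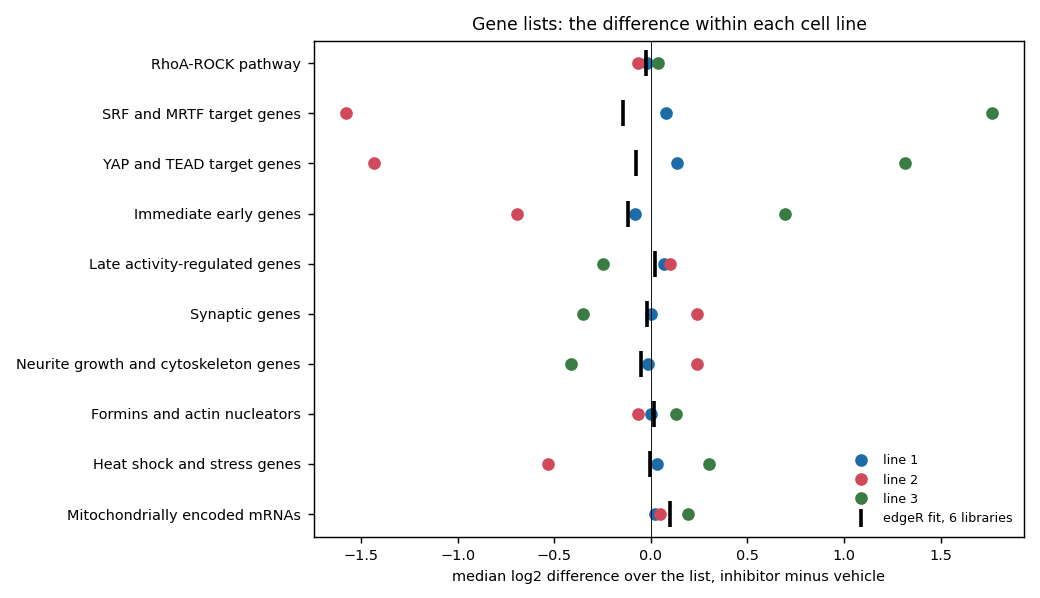
Median log2 difference (inhibitor minus vehicle) of 10 gene lists, a dot for each WT cell line and a bar for the edgeR fit of 6 libraries. SRF and YAP targets lie at -1.58 and -1.43 in line 2 and at 1.77 and 1.31 in line 3, while the pathway, formin and mitochondrial lists lie between -0.07 and 0.19 in each line.

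Calls appeared under 2 alternatives, both of which address the pair of libraries that stood apart. Without the vehicle library of line 2 and the inhibitor library of line 3 together, 1 gene was called, Slco2a1, a prostaglandin transporter, with an edgeR adjusted p of 0.0127 and a log2 fold change of 1.14. Slco2a1 was at 16.8, 194 and 15.3 CPM in vehicle and at 34.8, 35.8 and 160 CPM with inhibitor, so the call set 34.8 and 35.8 against 16.8 and 15.3 CPM. With all 6 libraries its log2 fold change was 0.03 ± 1.17. In the same 4 libraries all 10 epithelial markers, a list added after values were seen, were higher with inhibitor (median 1.55), with summed levels of 70.4 and 27.0 CPM in vehicle and of 131 and 142 CPM with inhibitor, and their part in the call was not tested. With the first principal component as a covariate, chosen after seeing the data, 4 genes were called. Ankrd1 differed by -2.21 (edgeR adjusted p of 0.0189), Hk2, the hexokinase that starts glycolysis, by -0.83, Mgarp, a mitochondrial protein induced by hypoxia, by -1.13 and Cd9, a tetraspanin, by 0.58 (adjusted p of 0.0375 each). Mgarp was at 7.30, 13.2 and 6.55 CPM in vehicle and at 3.53, 4.003 and 5.70 CPM with inhibitor, without overlap. Hk2 was at 31.8, 82.2 and 31.8 CPM and at 23.2, 24.2 and 40.1 CPM, and Cd9 at 24.7, 173 and 12.1 CPM and at 51.3, 50.4 and 193 CPM, so that these 2 overlapped. In that fit 9 of the 10 epithelial markers were higher (median 0.22), and their part in the Cd9 call was not tested. In other alternatives the adjusted p of these 5 genes reached 1.00. A component computed from the same libraries can carry part of the treatment difference, which limits the 4 calls.

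Whether the response was the same in the Daam1 microexon knockout (KO) lines was tested as an interaction over all 12 libraries. No gene of 15443 was called (0%, smallest edgeR adjusted p of 0.808), and 185 (1.2%) had an unadjusted p below 0.05. DESeq2 also called 0, with 595 genes at an unadjusted p below 0.05. KO values are CPM on the scale of the 12 libraries. The inhibitor library of KO line 3 had 9.96% of counts on mitochondrially encoded genes, beside 13.7% to 18.5% in the other 11 libraries. Its summed epithelial markers were at 1720 CPM, beside 11.9 to 176 CPM in the other 5 KO libraries, neural progenitor markers at 545 beside 31.0 to 96.2 CPM, and astrocyte markers at 1385 beside 689 to 854 CPM. Summed synaptic genes were at 3774 beside 13292 to 15120 CPM, and Map2, a dendritic microtubule protein, at 80.6 beside 538 to 739 CPM. The part of these in the KO line 3 values was not tested, and the differences of responses are given with and without this library.

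The 10 genes leading on the lower side in WT were higher with inhibitor in KO lines 1 and 2, 10 of 10 in each, and lower in KO line 3, again 10 of 10. The share of all genes with these signs was not computed, so the counts describe these genes and do not show a difference between genotypes. Bnip3 was at 360, 308 and 351 CPM in KO vehicle lines 1 to 3 and at 385, 499 and 165 CPM with inhibitor. Its within-line differences were 0.10, 0.70 and -1.09 in KO and -0.45, -0.43 and -0.48 in WT. The difference of the responses (WT minus KO) was -0.48 ± 0.44, and -0.82 once the inhibitor library of KO line 3 was left out (edgeR adjusted p of 0.808 with it and 1.00 without). H2-Ab1 was at 5.86, 6.62 and 9.22 CPM in KO vehicle and at 9.53, 17.9 and 1.21 CPM with inhibitor, a difference of responses of -1.32 ± 0.94, and -1.84 without that library. For Gpi1 the values were 963, 1056 and 1174 CPM and 1094, 1364 and 434 CPM, a difference of responses of -0.23 ± 0.47, and -0.58 without that library. H2-Q7 had the smallest unadjusted p of the interaction among these genes, with a difference of -1.48 ± 0.47, and -1.75 without that library (edgeR adjusted p of 0.808 and 1.00). No interaction of the 20 leading genes passed, with adjusted p from 0.808 to 0.987.

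The 10 genes leading on the higher side were less uniform in KO lines, with 5 of opposite sign in line 1, 7 in line 2 and 4 in line 3. Here too the share over all genes was not computed. Nptx1 was higher with inhibitor in KO lines 1 and 2 as in WT, by 0.23 and 0.17, and lower by 1.44 in line 3 on the log2 scale. Cadps2 and Scn4b were lower with inhibitor in all 3 KO lines. Rock2 responded by 0.11 ± 0.12 in KO and Rock1 by 0.79 ± 0.52, or by -0.0044 and -0.20 once the inhibitor library of KO line 3 was left out.

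**Figure D5:**
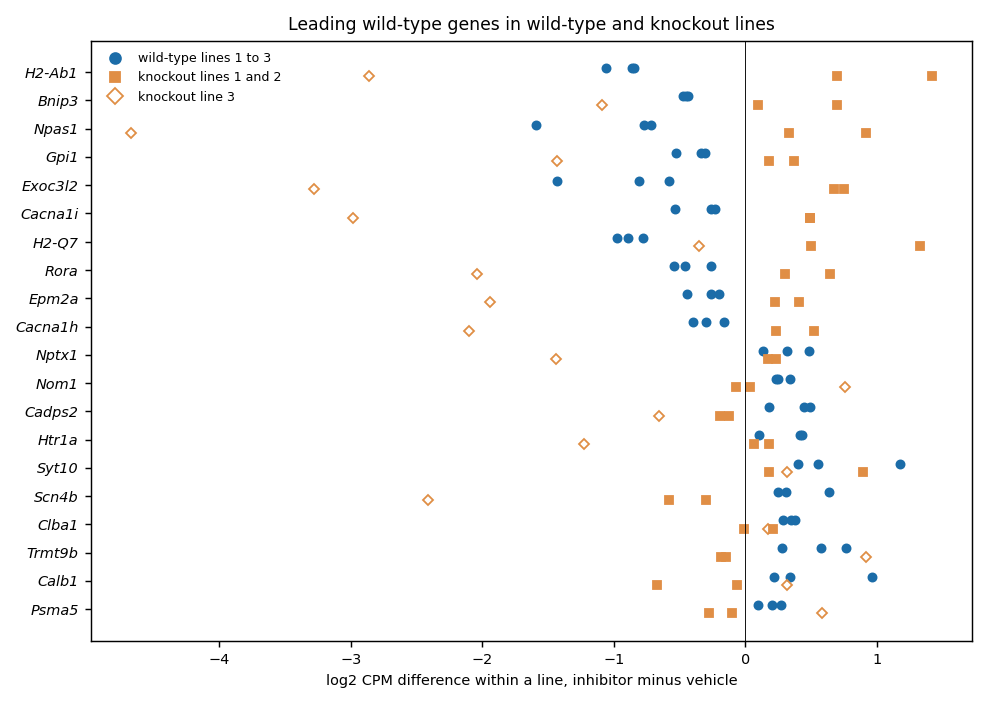
Within-line log2 CPM difference (inhibitor minus vehicle) of the 20 genes leading in WT, for 3 WT lines (circles), KO lines 1 and 2 (squares) and KO line 3 (open diamonds). For the 10 upper genes the WT circles lie below 0, as their choice fixes, the KO squares lie above 0, and the KO line 3 diamonds lie between -4.67 and -0.35.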

How the data were processed

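RNA of 12 libraries (4 groups of 3) was deposited as 1 table per library with 36902 genes. The authors deposited whole-number read counts per gene, not normalized, and cRPKM values, which are RPKM (reads relative to gene length and library size) with a correction the labels leave undefined. The genome is mm10, per the submitters' processing notes. The aligner, annotation and use of strand are not given in the sources used here. Of the genes, 3342 were NA, which left 33560, and 33371 matched a symbol in GENCODE release M21, whose GRCm38 coordinates are given.

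The main fit used the 6 WT libraries: filterByExpr by group, TMM scaling, and a robust quasi-likelihood fit and F test in edgeR 4.0.16 (R 4.3.3), with Benjamini-Hochberg adjustment over 15013 genes and a call at an adjusted p below 0.05. A standard error is the log2 fold change over the root of its F value. The interaction used all 12 libraries (15443 genes). Neither fit had a term for cell line, so their p-values, standard errors and intervals are unpaired. CPM values are TMM-scaled, and within-line differences are of log2 CPM with a prior count of 2. Alternatives were the cell line as a block, library totals as scaling, DESeq2 1.42.0, limma 3.58.1, no filter, all 12 libraries in the fit, a mesenchymal covariate and leaving out libraries or lines. The first principal component as a covariate was added after seeing the data. The procedure was also run on simulated counts drawn independently for each library. These held no shift shared by a pair of libraries, so that run does not show how the fit handles such a pair.

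Named genes were Daam1, Rock1 and Rock2, the 10 genes in each direction with the smallest unadjusted p, a mean of at least 1 CPM and no overlap, up to 2 extremes per list in each direction, and a set of anchor genes. Mgarp, Hk2, Cd9, Slco2a1, Arhgef11, Cnn1, Nuak2 and Dusp1 fall outside this rule and were named after their values were seen, as was every gene of the closing section that is not among these. The comparison, lists and rules were chosen with earlier results of these data known. A further list and 1 neuronal marker are not reported here. List genes without a row with counts were Pdxp, Jund, Rims1, Nrxn2, Dpysl4 and Srsf1.

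The labels name the cell line of each library, which pairs vehicle with inhibitor. Deviations from the group means correlated at 0.44, -0.57 and -0.74 between libraries of lines 1, 2 and 3, and at 0.74 between the vehicle library of line 2 and the inhibitor library of line 3. Counts without molecular identifiers are not independent molecules. Promoter windows are from RefSeq (GRCm38.p6), and H2-Ab1, Cacna1h, Nptx1, Trmt9b and Calb1 had none.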

Additional observations from a re-analysis of the deposited data

Results flagged for a closer look

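In 5 genes described above or below, all 3 WT lines moved one way with inhibitor and all 3 KO lines the other way. How often all genes show this pattern was not computed, so the count is a description. Cadps2 and Scn4b had been chosen for WT libraries without overlap, which fixes their WT signs. The difference of the responses (WT minus KO, log2) was 0.68 for Cadps2, 1.28 for Scn4b, 0.72 for Nefh, -0.61 for Hspa1a and 0.58 for mt-Nd6. The interaction term was tested and passed for none of them (edgeR adjusted p of 0.808 each). Scn4b was at 21.6, 23.5 and 22.0 CPM in KO vehicle lines 1 to 3 and at 17.6, 15.7 and 4.07 CPM with inhibitor, whereas WT lines were higher with inhibitor by 0.25, 0.31 and 0.64 on the log2 scale. With KO_ROCKi 3 left out, the differences were 0.48 for Cadps2, 0.86 for Scn4b, 0.36 for Nefh, -0.58 for Hspa1a and 0.49 for mt-Nd6. Cadps2, Scn4b and Nefh are neuronal genes with their lowest KO value in that inhibitor library of line 3, whose part in the result was not tested. Hspa1a differed by 0.01, 0.27 and 0.05 in KO lines, close to 0 in lines 1 and 3, and Nefh by 0.01 in WT line 1.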

How the results depend on the processing

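Over 18 alternative fits of the WT comparison, 16 called 0 genes, 1 called 1 gene (without the vehicle library of line 2 and the inhibitor library of line 3) and 1 called 4 (first principal component as a covariate). The number at an unadjusted p below 0.05, 167 with all 6 libraries, was 45 with the replicate block by cell line, 140 with library totals, 231 without a filter, 47 in the fit of all 12 libraries, 631 with the mesenchymal covariate, 1477 without that pair of libraries and 1241 with the component. When 1 library was left out it ran from 74 (inhibitor line 1) to 1072 (vehicle line 2), with 93 and 91 without inhibitor lines 2 and 3. Without both libraries of a line it was 10, 544 and 82 for lines 1, 2 and 3. The replicate block changed no call. The interaction had 0 calls in its 16 alternatives, with 167 genes at an unadjusted p below 0.05 under the replicate block, 393 without a filter, 595 with DESeq2 (185 in edgeR) and 77 (without WT vehicle line 2) to 1214 (without KO inhibitor line 2) when 1 library was left out. It was 290 and 283 without WT vehicle lines 1 and 3, 87 without KO vehicle line 2, 96 and 99 without WT inhibitor lines 1 and 2, and 454 and 317 without KO inhibitor lines 1 and 3.

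Log2 fold changes took the opposite sign for Acta2 (0.25 with the replicate block, 0.34 with limma), Ccn2 (0.28 and 0.26) and Myl9 (0.024 and 0.024). Without the pair of libraries they were 0.76 for Acta2, 0.75 for Ccn2, 0.63 for Myl9, 0.30 for Ccn1, 0.036 for Actb and 0.012 for Rock1. Rock1 was also at 0.0099 with library totals and 0.014 with 12 libraries, and Fos at -0.0085 with the mesenchymal covariate and -0.035 with the component. Leaving out 1 library gave ranges that cross 0 for Acta2 (-1.31 to 1.297), Actb (-0.25 to 0.033), Ankrd1 (-3.98 to 0.59), Ccn1 (-2.24 to 1.01), Ccn2 (-1.39 to 1.69), Cd9 (-0.46 to 2.42), Fos (-0.11 to 0.27), Myl9 (-1.48 to 0.88), Rock1 (-0.22 to 0.23), Rock2 (-0.096 to 0.018) and Slco2a1 (-1.09 to 2.26). Without both libraries of a line, with the replicate block, opposite signs came for Acta2 at 0.42 and Ccn2 at 0.22 without line 1. Fos was at -0.0097 without line 1 and -0.082 without line 3. Without line 2 they came for Acta2 at 1.90, Ccn2 at 1.74, Myl9 at 1.40, Ccn1 at 1.26, Ankrd1 at 0.69, Rock1 at 0.37, Rock2 at 0.069, Actb at 0.039, Srf at 0.0018 and Egr1 at 0.00051, and without line 3 for Daam1 at 0.080, Map1b at 0.042, Npas4 at 0.022, Camk2a at -0.0089, Cd9 at -0.37 and Slco2a1 at -0.71. The median of the RhoA-ROCK list was -0.089 without vehicle line 1 and that of GABAergic markers 0.15 without inhibitor line 3. The cause was not tested. Besides these and 5 values that gained a call as given above, 1147 gene values kept sign and side of the threshold. Low read numbers limit H2-Ab1, H2-Q7 and Exoc3l2, and among the leading higher genes Syt10 and Trmt9b (110 to 250 reads).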

Other observations

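Genes of glycolysis and known HIF targets lay lower with inhibitor in WT neurons. The list of 40 genes was drawn up after Bnip3 and Gpi1 had been seen among the leading genes. Its counts include both, and Mgarp as well, so they are a description. Of 39 tested, 39 had negative log2 fold changes with a median of -0.35 beside -0.01 over all genes, 26 were lower in all 3 lines (8.63% of all genes were) and 21 were lower without overlap (3.87%). The within-line medians were -0.22, -0.61 and -0.20. Ldha, lactate dehydrogenase, was at 549, 855 and 612 CPM in vehicle and at 420, 521 and 440 CPM with inhibitor (-0.55 ± 0.19). Pdk1, the kinase that holds back pyruvate dehydrogenase, was at 90.0, 138 and 101 CPM and at 74.8, 80.8 and 71.0 CPM (-0.54 ± 0.17). Fam162a, a mitochondrial protein induced by hypoxia, was at 53.7, 77.0 and 53.0 CPM and at 36.8, 42.9 and 43.2 CPM (-0.58 ± 0.17). Pgam1 and Tpi1, glycolytic enzymes, each differed by -0.44, Aldoa by -0.34, Pgk1 by -0.31 and Vegfa, the endothelial growth factor, by -0.27. Stc2, a secreted stanniocalcin, differed by -0.79 ± 0.32. None had an edgeR adjusted p below 0.05. Gapdh differed by -0.37 with overlap, and glycolytic genes with many pseudogene copies are uncertain in counting.

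The summed level of the list was 8894.5, 12525 and 9569 CPM in vehicle lines 1 to 3 and 7572, 8482 and 8095 CPM with inhibitor, highest in the vehicle library of line 2. Without that library 31 of 39 were lower (median -0.23), and without it and the inhibitor library of line 3 together 33 of 39 (median -0.20). With the first principal component as a covariate 37 of 39 were lower (median -0.38). Tricarboxylic acid cycle genes, a list added at the same time, were balanced (10 of 18 higher, median 0.01), but 3 of 18 were higher without the vehicle library of line 2 and 18 of 18 without the inhibitor library of line 3. In KO lines the HIF and glycolysis list had within-line medians of 0.37, 0.53 and -0.96, so that lines 1 and 2 leaned the other way from WT. The KO fit without the inhibitor library of line 3 had 35 of 39 higher (median 0.36), and 27 of 39 with it (median 0.13). Of 36 promoters listed for these genes, 18 held ACGTG within 250 bases before the start (16.6% of all 32817 listed promoters). Known HIF targets are in the list by choice, so this share describes the list and not the inhibitor. List genes entered with the promoter nearest their start, while the 16.6% counts every listed promoter. The promoter of Ldha is shown because it held 5 matches, in capitals (RefSeq GRCm38.p6, chr7:46845554-46845803, plus strand, 5′ to 3′). Those of Pdk1 and Tpi1 held no match.
Ldha: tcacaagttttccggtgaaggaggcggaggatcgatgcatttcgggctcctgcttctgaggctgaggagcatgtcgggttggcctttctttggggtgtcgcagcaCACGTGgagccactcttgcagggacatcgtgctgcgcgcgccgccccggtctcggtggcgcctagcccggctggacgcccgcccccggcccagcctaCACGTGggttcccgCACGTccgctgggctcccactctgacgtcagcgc

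Other lists added after values were seen gave these results. Kinases of the CLK family and SR splicing proteins leaned higher, 15 of 17 with a median of 0.12, but 8 of 17 and a median of -0.01 without the pair of libraries that stood apart. Clk1, a kinase that phosphorylates SR proteins, was at 60.2, 30.4 and 58.6 CPM in vehicle and at 80.9, 69.7 and 94.3 CPM with inhibitor (0.71 ± 0.28), and Clk4 differed by 0.56 ± 0.22, both without overlap. Antigen presentation genes leaned lower (11 of 15, median -0.14), but 8 of 15 were lower without the pair of libraries (median -0.02) and 8 of 15 without the vehicle library of line 2 alone (median -0.09). H2-Ab1 had the smallest unadjusted p among them. Of the 15, 4 were lower without overlap (3.87% of all genes), the leading genes H2-Ab1 and H2-Q7 included, and 1 was higher (2.22%). H2-T23 differed by -0.61 and H2-K1 by -0.50, each lower in all 3 lines. Nlrc5, the transactivator of MHC class I genes, was higher without overlap, at 0.417, 0.388 and 0.199 CPM in vehicle and at 0.687, 0.935 and 0.619 CPM with inhibitor, from 6 to 25 reads. Psmb9, an immunoproteasome subunit, was higher in all 3 lines with overlap, while Cd74, the class II invariant chain, was at 1.04, 1.36 and 1.39 CPM and at 1.28, 1.12 and 1.04 CPM, with overlap. Epithelial genes summed to 70.4, 703 and 27.0 CPM in vehicle and to 131, 142 and 429 CPM with inhibitor, highest in the same pair of libraries as the mesenchymal markers.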
